A study of Mus musculus with 2 samples.

Results

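The 32 genes described here are a cell cycle module: genes whose transcripts accumulate while a cell copies its DNA or divides. They were chosen by symbol from a fixed list, and all 32 were found among the 47730 features counted. Each was measured in live CD45+ immune cells, CD45 being the surface protein that marks white blood cells, sorted from tumours of C57BL6\J mice. All mice were ovariectomised, which removes the ovaries and their oestrogen, and were then given placebo or E2 (oestradiol, the main ovarian oestrogen). There was 1 library per group, so the design has no replicate and no test was run. The intervals below cover counting error only and say nothing of the spread between mice or libraries. Those on counts summed over a class also leave out the spread between cells. The sources used here do not state which tumour was studied, how much E2 was given or for how long, or how many mice each library holds.

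A dividing cell passes through a phase of DNA synthesis (S), a second gap (G2) and mitosis (M), and each phase has its own transcripts. S genes make deoxynucleotides and build the replication machinery. G2/M genes condense chromosomes, assemble the spindle and trigger the destruction of cyclins that ends mitosis. Factors of the E2F family act at the promoters of many S genes, and the MuvB complex acts at many G2/M promoters through a short element called the CHR, often next to CCAAT boxes bound by NF-Y. In tumours, T cells divide after meeting antigen, dendritic cell precursors keep dividing after they leave the marrow, and some macrophages renew themselves locally, whereas mature neutrophils do not divide. The module was split into 13 S genes, 18 G2/M genes and Stmn1, a regulator of microtubules that was left in neither group.

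The promoters show how the S and G2/M groups differ in sequence. RefSeq promoters of 300 bases (GRCm38.p6) were matched for 28 of the 32 members, and those of Aurkb, Mcm4, Stmn1 and Tpx2 were not. On either strand, a CHR-type element (TTTGAA or TTTAAA) was present in 15 of 16 G2/M promoters (93.8%) and in 4 of 12 S promoters (33.3%), against 27.6% of all 32851 promoters. The CCAAT box was present in 15 of 16 G2/M promoters and 9 of 12 S promoters, against 37.4% of all promoters. An E2F-type element (TTTCCCGC, TTTGGCGC or TTTCGCGC) was present in 5 of 12 S promoters and 1 of 16 G2/M promoters, against 1.84% of all promoters. A match is a description of the letters and not a shown binding site. Overlapping matches, on 1 strand or on opposite strands, run together in the capitals. The stretches below run from 160 bases before to 30 bases after the start site. They were chosen because Ccnb2 (cyclin B2) and Ube2c (an enzyme that marks cyclins for destruction) show the G2/M layout. Mcm5 and Mcm6 (subunits of the replicative helicase) were chosen for their E2F-type elements. Only 5 of 12 S promoters hold such an element, so these 2 do not stand for the S group. Capitals mark CHR-type, CCAAT and E2F-type elements on either strand. Ccnb2 is at chr9:70421525-70421714 (- strand), Ube2c at chr2:164769769-164769958 (+ strand), Mcm5 at chr8:75109349-75109538 (+ strand) and Mcm6 at chr1:128359676-128359865 (- strand).
Ccnb2: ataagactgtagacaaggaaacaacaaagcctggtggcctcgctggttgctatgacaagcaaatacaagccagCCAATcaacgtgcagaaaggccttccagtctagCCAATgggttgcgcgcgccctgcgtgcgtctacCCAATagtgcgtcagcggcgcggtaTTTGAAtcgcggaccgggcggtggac
Ube2c: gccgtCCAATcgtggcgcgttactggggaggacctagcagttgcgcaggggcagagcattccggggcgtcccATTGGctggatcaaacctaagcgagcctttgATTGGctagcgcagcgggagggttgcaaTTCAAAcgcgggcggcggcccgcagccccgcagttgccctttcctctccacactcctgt
Mcm5: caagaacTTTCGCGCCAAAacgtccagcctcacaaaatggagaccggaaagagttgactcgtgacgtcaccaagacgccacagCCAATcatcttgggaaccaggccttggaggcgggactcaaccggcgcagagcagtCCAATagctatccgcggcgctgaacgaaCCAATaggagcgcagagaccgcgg
Mcm6: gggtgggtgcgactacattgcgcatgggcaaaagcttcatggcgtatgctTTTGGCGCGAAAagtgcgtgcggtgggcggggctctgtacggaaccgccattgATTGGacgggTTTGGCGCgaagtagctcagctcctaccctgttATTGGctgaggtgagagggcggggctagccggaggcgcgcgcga
The Ccnb2 and Ube2c stretches each hold several CCAAT boxes (ATTGG where on the opposite strand) upstream of a CHR-type element near the start site (TTCAAA on the opposite strand in Ube2c). In Mcm5 and Mcm6 the capital run of 12 bases is a pair of overlapping E2F-type elements on opposite strands.

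The placebo library held 3505 barcodes and 24545595 unique molecular identifiers (UMIs, tags that count each captured RNA molecule once) against 5791 barcodes with 52628133 UMIs under E2. After removal of likely doublets, 3393 and 5499 barcodes were kept, of which 3035 and 5027 were gated as an immune class from marker genes. Cell types carry "-like" because they rest on markers. Defining markers were counted in each class. They are among the genes the gates use, so a high share in the own class follows in part from the gating. It is no independent check. Cd3e had a UMI in 75.7% and 67.3% of T-like cells (placebo and E2), Foxp3 in 93.6% and 89.1% of regulatory T-like cells, Xcr1 in 87.0% and 90.8% of type 1 conventional dendritic (cDC1)-like cells and Csf1r in 91.6% and 95.03% of monocyte and macrophage-like cells. Several were shared or sparse. Csf1r had a UMI in 69.5% of type 2 conventional dendritic (cDC2)-like cells. Il1rl1, the ILC2 marker, had one in 97.6% of mast-like cells against 81.3% and 88.5% of ILC2-like cells. Ccr7 of mature dendritic cells was in 74.3% of B-like cells, Cpa3 of mast cells in 54.3% of basophil-like cells and Cd209a of cDC2 in 38.0% of plasmacytoid dendritic-like cells. Retnlg was in 51.0% and 68.8% of neutrophil-like cells. The libraries shared 95 barcodes, of which 84 were kept in both, and 20 of these fell in the same class. In values summed over a class, more dividing cells and more RNA per dividing cell cannot be told apart. Among features named as copies of a member, Pcna-ps2 held the most UMIs, 34 and 36, against 2836 and 4087 for Pcna. Copies under other names were not looked up, and reads that members lost to copies were not measured.

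Over all kept barcodes, Hmgb2, a chromatin protein that is also present outside division, had the most UMIs of the module, 14110 in placebo and 26568 in E2. Pcna, the sliding clamp of DNA polymerase, had a UMI in 1510 and 2104 barcodes. Mki67, the source of the Ki-67 protein used to stain dividing cells (chr7:135689784-135716361), had 1598 and 3519 UMIs in 350 and 658 barcodes. Top2a, which untangles DNA (chr11:98992943-99024189), had 1206 and 2765 UMIs. The sparsest members were Bub1, a spindle checkpoint kinase, with 108 and 279 UMIs, and Plk1, a mitotic kinase, with 120 and 257.

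To see which members mark division, cells were called by a separate list of 49 other cell cycle genes, after each cell was thinned to 2000 UMIs so that depth was equal. At least 5 of those genes were present in 68 placebo and 211 E2 immune cells, and at most 1 in 2265 and 3889. Stmn1 had a UMI in 80.9% and 84.4% of the called cells (placebo and E2) and in 4.32% of the uncalled cells of both libraries. Mki67 had one in 66.2% and 64.0% of called cells and 2.29% of uncalled cells. For Birc5, which encodes survivin of the chromosomal passenger complex, the values were 41.2%, 44.1% and 0.309%. The 3 genes Hmgb2, Pcna and Cenpa (the centromeric histone) stood apart in the uncalled cells, at 44.5%, 14.5% and 8.86%. The remaining 29 members were each in under 5% of uncalled cells. Of all members Mcm4 differed most between the called cells of the libraries, at 32.4% in placebo and 12.3% in E2.

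**Figure D1:**
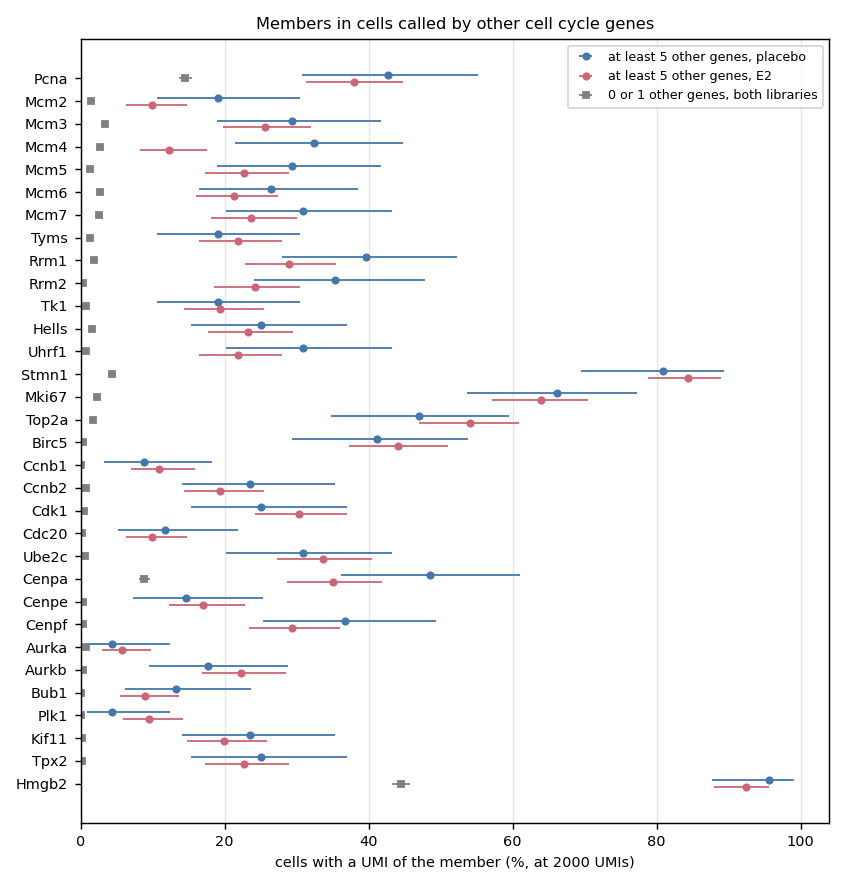
Percent of immune cells with a UMI of each member at 2000 UMIs per cell, in cells holding at least 5 other cell cycle genes (circles, by library) and in cells holding 0 or 1 (squares, both libraries); bars are 95% Clopper-Pearson intervals. Stmn1 and Mki67 separate the 2 kinds of cell widely, and Hmgb2 is in 44.5% of the uncalled cells.

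A cell was called dividing when at least 3 of the 32 members had a UMI at 2000 UMIs. Cells with under 2000 UMIs were left out, 237 in placebo and 303 in E2. Because Hmgb2, Pcna and Cenpa are common outside division, this call is wide: of 215 such T-like cells in placebo, 119 held exactly 3 members. A narrower call of at least 5 members is therefore given beside it. The call of at least 3 was the planned main one, and that of at least 5 was planned only as an alternative. Neutrophil-like cells give a background. In them 2 of 168 (1.19%) and 6 of 484 (1.24%) held at least 3 members. None of 168 or 484 held 5, which allows shares of up to 2.17% and 0.759%. This background need not hold for other classes. No basophil-like cell held 5 members either, yet 8.82% and 8.33% held at least 3. Among all gated immune cells, at least 3 members were held by 365 of 2798 (13.0%) in placebo and 597 of 4724 (12.6%) in E2, a ratio of 0.969 (0.849 to 1.11). At least 5 were held by 106 (3.79%) and 275 (5.82%), a ratio of 1.54 (1.22 to 1.94). The wide call thus did not separate the libraries and the narrow call did, beyond counting error.

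**Figure D2:**
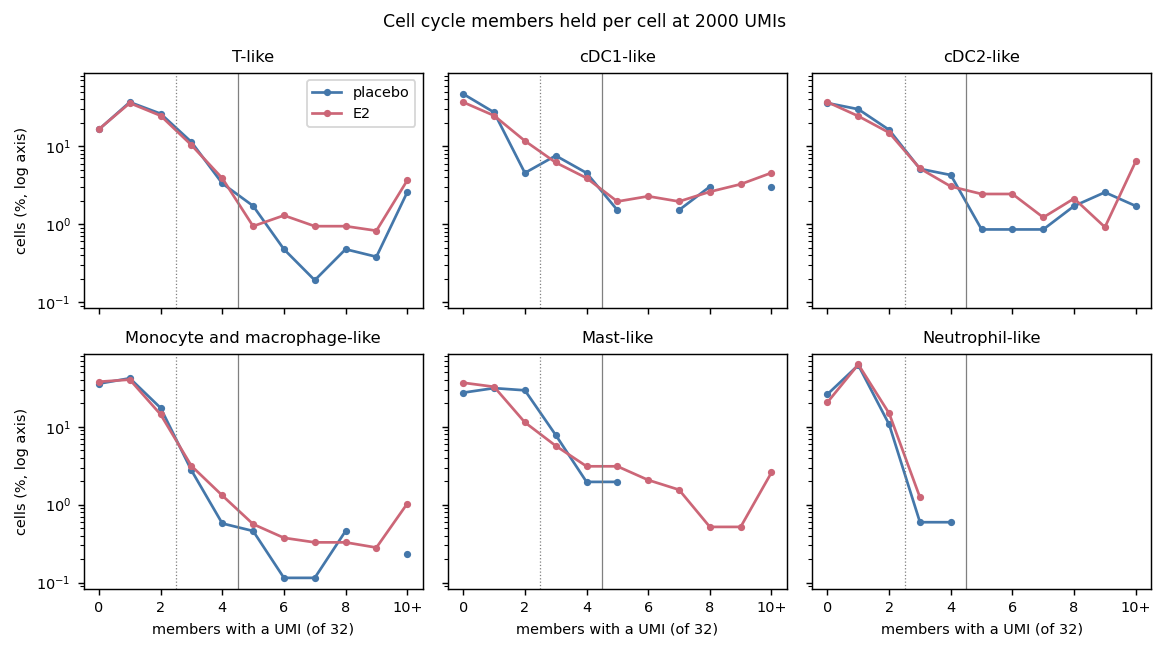
Percent of cells (log axis) by the number of members with a UMI at 2000 UMIs per cell, in 6 classes and both libraries; the dotted line marks at least 3 members, the solid line at least 5, the last point pools 10 or more, and values of 0 have no point. T-like, cDC1-like and cDC2-like cells have a tail reaching 10 or more members, and no neutrophil-like cell holds 5.

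T-like cells were the largest share of the cells holding at least 5 members in placebo, 61 of 106 (57.5%, 47.6 to 67.1), and a smaller share in E2, 73 of 275 (26.5%, 21.4 to 32.2). T-like cells also made up less of all immune cells of that depth in E2, 17.99% against 37.5%. Other classes were a larger share of these cells in E2: cDC1-like cells (18.5%, against 5.66% in placebo), cDC2-like cells (18.5% against 9.43%), monocyte and macrophage-like cells (22.5% against 11.3%) and mast-like cells (7.27% against 0.943%). B-like cells were 11 of 106 in placebo and 0 of 275 in E2. The same classes shifted the same way among all immune cells of that depth. There cDC1-like cells were 6.499% in E2 against 2.36% in placebo, cDC2-like cells 6.94% against 4.18%, monocyte and macrophage-like cells 45.2% against 31.1%, mast-like cells 4.09% against 1.82% and B-like cells 1.12% against 6.15%. The share of dividing cells over all immune cells therefore mixes class makeup with the share within each class.

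Within T-like cells, at least 5 members were held by 61 of 1050 cells (5.81%) in placebo and 73 of 850 (8.59%) in E2, a ratio of 1.48 (1.04 to 2.11). With at least 3 members the shares were 20.5% and 22.8% (ratio 1.11, 0.913 to 1.36). Without thinning, the order turned, to 54.3% and 48.1%. Cells holding at least 5 members were deeper than the other T-like cells, with medians of 10908 and 11781 UMIs against 4522 and 4239. Regulatory T-like cells, which express Foxp3 and restrain other T cells, had 28 of 417 (6.71%) in placebo and 44 of 371 (11.9%) in E2 (ratio 1.77, 1.08 to 2.95). In conventional CD4 T-like cells (helper cells) there were 6 of 244 (2.46%) and 9 of 166 (5.42%). CD8 T-like cells, the cytotoxic lineage, had the same share in both libraries, 14 of 189 and 8 of 108 (7.41%; ratio 1, 0.363 to 2.55). Gamma-delta T-like cells had 5 of 85 (5.88%) and 6 of 108 (5.56%). With at least 3 members the subset shares were 19.4% and 27.0% (regulatory; ratio 1.39, 1.02 to 1.88), 20.5% and 21.1% (CD4), 20.6% and 22.2% (CD8), and 17 of 85 and 16 of 108 (gamma-delta). The interval excludes a ratio of 1 only in the regulatory class, and the ratios of the subsets overlap widely. Under several alternative settings, given below, the regulatory interval includes 1 too.

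**Figure D3:**
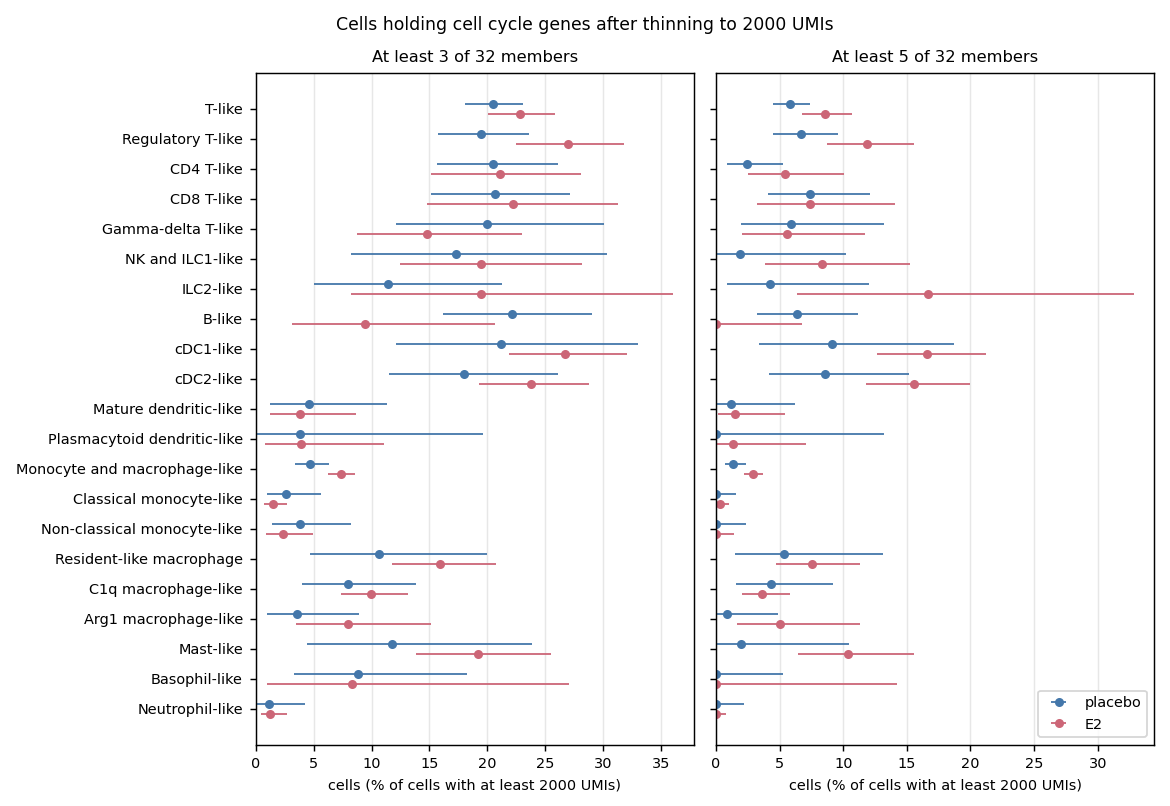
Percent of cells holding at least 3 (left) and at least 5 (right) of the 32 members, by class and library, with 95% Clopper-Pearson intervals. The shares at 5 members are 16.6% and 15.5% in E2 cDC1-like and cDC2-like cells, and neutrophil-like cells are at 0 in both libraries.

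For levels, UMIs were summed over a class and scaled to an equal total per class (CPM, the usual unit for counts scaled to library size). A member was counted as higher or lower when it differed at least 1.5-fold on the log2(CPM + 10) scale, and a fold on that scale understates low genes. Intervals on CPM ratios treat each UMI as independent, although few cells held many of them. Of the module's UMIs in cells deep enough to thin, those holding at least 5 members had 63.8% and 74.9% in T-like cells (placebo and E2). In cDC1-like cells they had 52.4% and 77.0%. Such intervals are therefore narrower than the spread between cells would make them. Over all gated immune cells 2 of 32 members were at least 1.5-fold higher in E2, against 0.819% of all genes measured: Stmn1, at 87.8 and 166 CPM, and Birc5, at 25.1 and 43.8 CPM. In T-like cells 6 of 32 members were at least 1.5-fold higher in E2, against 0.483% of the 11589 genes measured, and none was lower. The median log2 difference was 0.30 over the members and -0.06 over all genes. Of the 6, 5 were G2/M genes and 1 was Stmn1. All 18 G2/M genes were above 0, with a median of 0.47. The S genes had a median of 0.08, with 8 of 13 above 0 and none past 1.5-fold.

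Among the mitotic members of T-like cells, Ube2c was at 56.4 CPM in placebo and 109 CPM in E2 (ratio 1.93, 1.67 to 2.22). Birc5 was at 51.6 and 96.5 CPM (ratio 1.87). Tpx2, which nucleates spindle microtubules, was at 17.8 and 38.1 CPM (ratio 2.13), and Aurkb, the kinase that acts with survivin, at 12.0 and 25.4 CPM (ratio 2.12). These 4 were low genes in placebo and near 2 times as high in E2. Cdk1, the kinase that drives entry into mitosis, was at 21.1 and 38.7 CPM (ratio 1.83). Stmn1 was at 162 and 304 CPM (ratio 1.87, 1.73 to 2.04). Below that line on the log2(CPM + 10) scale, 11 further G2/M members had a ratio interval above 1. They included Mki67, at 129 and 190 CPM (ratio 1.47, 1.33 to 1.62), Cenpa, at 106 and 164 CPM, and Top2a, at 100.4 and 129 CPM. Cdc20, an activator of the mitotic ubiquitin ligase, and Plk1, a mitotic kinase, were at 18.3 and 19.1 CPM and at 9.08 and 11.4 CPM, with intervals that include a ratio of 1. The other G2/M members (Ccnb1, Ccnb2, Cenpe, Cenpf, Aurka, Bub1, Kif11 and Hmgb2) had ratios between 1.21 and 1.82.

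The S members of T-like cells were level. The helicase subunits Mcm2 to Mcm7 had ratios between 0.921 and 1.12, and each interval included 1. Mcm3 was at 55.2 and 62.0 CPM and Mcm6 at 62.9 and 58.0 CPM. The nucleotide enzymes Rrm1, Rrm2 and Tk1 had ratios of 1.04, 1.14 and 0.998, and Tyms, thymidylate synthase, was at 31.2 and 39.5 CPM (ratio 1.27, 1.03 to 1.56). Hells and Uhrf1, which maintain DNA methylation, had ratios of 1.08 and 1.09. Pcna was lower in E2, at 148 and 119 CPM (ratio 0.802, 0.720 to 0.892), without reaching 1.5-fold.

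**Figure D4:**
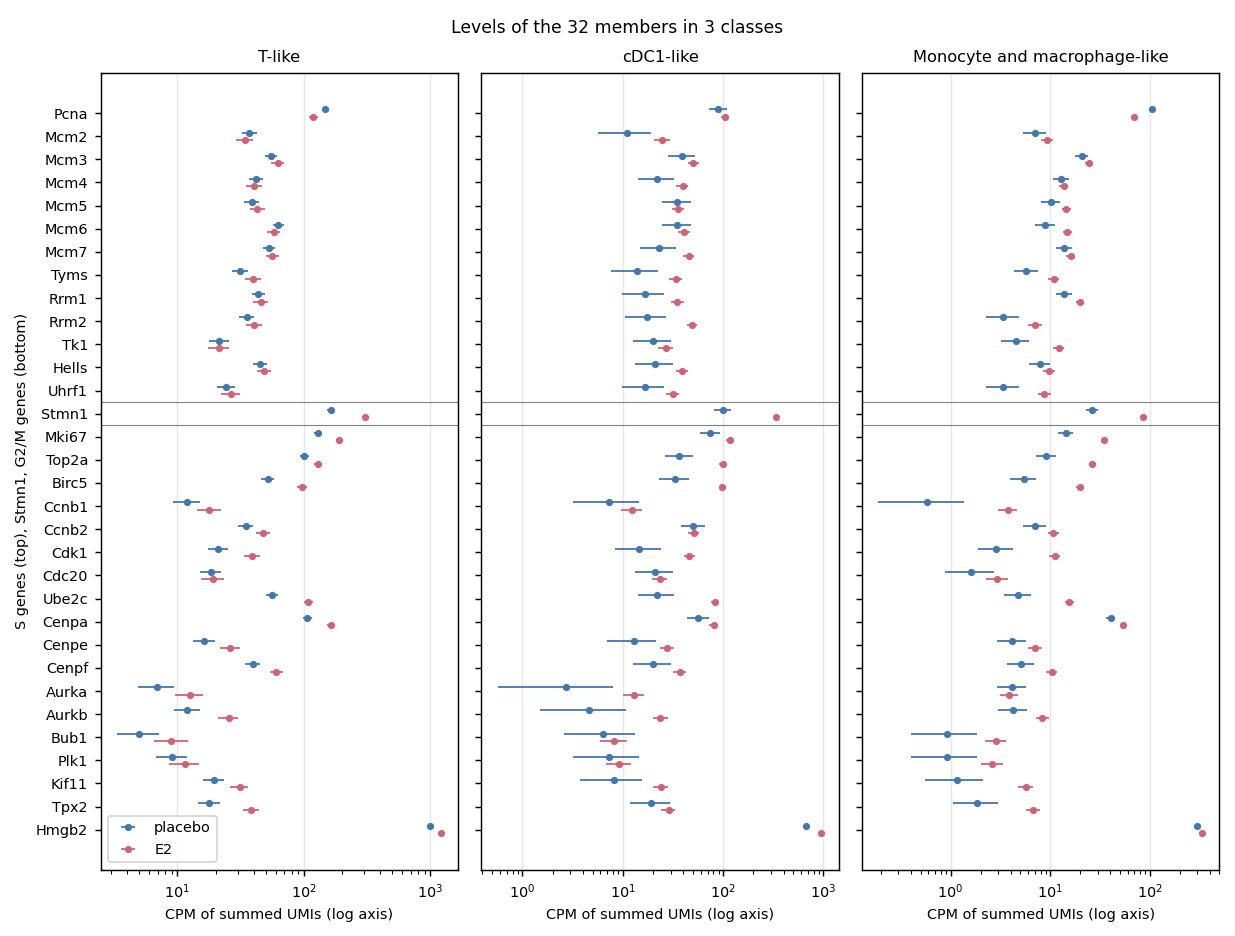
Level of each member in CPM of summed UMIs (log axis) in T-like, cDC1-like and monocyte and macrophage-like cells, by library, with exact Poisson 95% intervals. In T-like cells S members overlap between libraries and the G2/M members sit to the right in E2, while Pcna is higher in placebo in the T-like and the monocyte and macrophage-like panels.

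The T-like difference sat with the cells that held many members. T-like cells holding under 5 members had 521 and 487 CPM of the module without Hmgb2, against 7187 and 7372 CPM in those holding at least 5. Without the cells holding at least 5, 1 of 24 measured members was at least 1.5-fold higher and the median was -0.06. That removal uses the members themselves, so it locates the difference and tests nothing. The subsets varied. In regulatory T-like cells 4 of 32 members were higher (background 1.23%), among them Stmn1 at 211 and 395 CPM and Tpx2 at 25.5 and 49.7 CPM. In CD4 T-like cells 11 of 26 were higher (background 2.75%), with Birc5 at 14.98 and 59.9 CPM (ratio 4, 2.30 to 7.27) and Mki67 at 73.2 and 127 CPM. In gamma-delta T-like cells 9 of 21 were higher (background 5.55%), led by Ube2c at 27.1 and 133 CPM, although the share of cells was not larger. In CD8 T-like cells 16 of 20 measured members were lower in E2, 3 of them at least 1.5-fold (background 8.11% lower). Of so few members, 3 is not far from that background. The share of cells holding at least 5 members was the same (ratio 1, 0.363 to 2.55), so no direction is read for the class. The 3 were Ccnb2 at 21.1 and 6.79 CPM, Mcm6 at 65.2 and 34.0 CPM and Pcna at 185 and 112 CPM. Mki67 was at 65.2 and 78.1 CPM and Top2a at 49.8 and 49.2 CPM. Markers of B cells stood at 311 and 290 CPM in T-like cells, from a list of 7 of which none and 4 were at 0, and those of monocytes and macrophages at 57.3 and 52.8 CPM, with none and 1 of 9 at 0. Their part in the result was not tested.

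Among the innate lymphocytes the cells were few. NK and ILC1-like cells, which kill or secrete interferon-gamma without antigen receptors, had at least 5 members in 1 of 52 cells in placebo (1.92%) and 9 of 108 in E2 (8.33%; ratio 4.33, 0.600 to 190), and 11 of 17 measured members were higher in E2 (background 8.71%). Mki67 had 2 and 48 UMIs there (5.89 and 53.9 CPM, ratio 9.15, 2.40 to 77.7) and Stmn1 38.3 and 175 CPM. ILC2-like cells, tissue lymphoid cells of type 2 immunity, had 3 of 70 (4.29%) and 6 of 36 (16.7%; ratio 3.89, 0.831 to 24.0), and 15 of 19 members were higher (background 7.12%), with Mki67 at 36.5 and 173 CPM. With at least 3 members the differences were smaller, 17.3% and 19.4% in NK and ILC1-like cells (ratio 1.12, 0.493 to 2.79) and 11.4% and 19.4% in ILC2-like cells (ratio 1.70, 0.525 to 5.37). The intervals of all these share ratios include 1.

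B-like cells held the module at a lower level in E2. In placebo 11 of 172 B-like cells (6.40%) held at least 5 members, and all 11 lay among the 141 with a UMI of Vpreb3, a gene of developing B cells, chosen after its values were seen. In E2 it was 0 of 53, with an interval up to 6.72%, which includes the placebo share (ratio 0, 0 to 1.29). At least 3 members were held by 38 of 172 (22.1%) and 5 of 53 (9.43%; ratio 0.427, 0.131 to 1.09). Both ratio intervals include 1. Among B-like cells with a Vpreb3 UMI those shares were 33 of 141 (23.4%) and 1 of 35 (2.86%), and among those without, 5 of 31 (16.1%) and 4 of 18 (22.2%). The summed module was at 3754 CPM in placebo and 674 CPM in E2. In B-like cells holding under 5 members it was at 791 and 611 CPM. All 25 measured members were lower in E2, 23 of them at least 1.5-fold, in a class where 25.0% of all genes measured were lower by that much. Ube2c had 100 UMIs in placebo (137 CPM) and 0 in E2, 8.56-fold lower if E2 is set to a floor of 3 UMIs in the class. Birc5 had 64 and 0 UMIs, 5.48-fold lower by the same floor. These folds count UMIs and leave out the spread between cells, so they are not lower bounds. Mki67 was at 188 and 5.35 CPM and Stmn1 at 411 and 42.8 CPM. The class total in E2 was 186902 UMIs. The B markers themselves summed to 14433 CPM in placebo and 9930 CPM in E2, none of 7 at 0. Neutrophil markers summed to 163 and 53.5 CPM, with none and 5 of 8 at 0, and monocyte and macrophage markers to 103 and 150 CPM, with 1 of 9 at 0 in each. Their part in the result was not tested.

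Conventional dendritic cells had larger shares of cells holding the module in E2 than T-like cells had. In cDC1-like cells, which present antigen to CD8 T cells, at least 5 members were held by 6 of 66 (9.09%) in placebo and 51 of 307 (16.6%) in E2 (ratio 1.83, 0.784 to 5.21), and at least 3 by 21.2% and 26.7% (ratio 1.26, 0.709 to 2.40). All 32 members were higher in E2, 18 of them at least 1.5-fold, against 2.17% of genes measured in that class. The S and G2/M groups were alike there, with median log2 differences of 0.65 and 0.61. Stmn1 was at 98.9 and 340 CPM (ratio 3.43, 2.83 to 4.21), Ube2c at 22.0 and 82.6 CPM (ratio 3.76, 2.49 to 5.93) and Birc5 at 33.0 and 98.5 CPM (ratio 2.99). Top2a was at 36.6 and 99.1 CPM, Aurkb at 4.58 and 23.7 CPM from 5 and 127 UMIs, and Cdk1 at 14.6 and 46.0 CPM. Pcna and Mcm3 were nearer each other, at 89.7 and 104.5 CPM and at 39.4 and 50.7 CPM. Mki67 was at 74.1 and 116 CPM. Markers of neutrophils summed to 482 CPM in the placebo cDC1-like cells, with none of 8 at 0, and to 23.7 CPM in E2, with 3 at 0. Markers of T cells summed to 66.8 and 7.48 CPM, with none and 1 of 8 at 0. Their part in the result was not tested.

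In cDC2-like cells, which present antigen to CD4 T cells, 10 of 117 (8.55%) and 51 of 328 (15.5%) held at least 5 members (ratio 1.82, 0.913 to 4.02), and 17.9% and 23.8% held at least 3 (ratio 1.32, 0.810 to 2.26). By marker gates 12 of 32 members were at least 1.5-fold higher in E2 (background 1.47%), with Ube2c at 15.4 and 52.2 CPM, Top2a at 38.2 and 101 CPM, Stmn1 at 123 and 276 CPM and Pcna at 130 and 98.7 CPM. This count did not hold when classes were taken from clusters: then 0 members were higher by that much, 5 were lower, the median was -0.05 and the shares were 8.18% and 10.9%. The gated and clustered classes shared 79.5% of gated cells. Markers of monocytes and macrophages summed to 1222 and 2022 CPM in gated cDC2-like cells and to 1543 and 3152 CPM in those holding at least 5 members, with none to 2 of 9 at 0. Their part in the result was not tested. Dendritic cells at the end of their path held few: mature Ccr7+ dendritic-like cells had 1 of 87 (1.15%) and 2 of 131 (1.53%). Plasmacytoid dendritic-like cells had 0 of 26, which allows up to 13.2%, and 1 of 76 (1.32%). At 3 members these were 4.60% and 3.82%, and 3.85% and 3.95%.

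Monocyte and macrophage-like cells held the module in a smaller share of cells than T-like, cDC1-like or cDC2-like cells did. At least 5 members were held by 12 of 871 cells (1.38%) in placebo and 62 of 2134 (2.91%) in E2 (ratio 2.11, 1.13 to 4.30), and at least 3 by 4.71% and 7.36% (ratio 1.56, 1.10 to 2.26). With at least 2 members the order turned, to 22.2% and 21.7%. By subtype, 0 of 227 and 2 of 678 classical monocyte-like cells and 0 of 155 and 0 of 258 non-classical monocyte-like cells held 5. The zeros allow up to 1.61%, 2.35% and 1.42%. Resident-like macrophages had 4 of 75 (5.33%) and 21 of 277 (7.58%), C1q macrophage-like cells 6 of 138 (4.35%) and 16 of 442 (3.62%), and Arg1 macrophage-like cells 1 of 112 (0.893%) and 5 of 100 (5%). Cells of the class with no subtype had 1 of 164 (0.610%) and 18 of 379 (4.75%; ratio 7.79, 1.23 to 325). With at least 3 members, C1q macrophage-like cells had the opposite order, 7.97% and 9.95% (ratio 1.249, 0.635 to 2.68), so neither order is read there. The other values at 3 members were 2.64% and 1.47% in classical and 3.87% and 2.33% in non-classical monocyte-like cells, 10.7% and 15.9% in resident-like macrophages, 4 of 112 and 8 of 100 in Arg1 macrophage-like cells, and 3.66% and 11.9% in those with no subtype. Subtype borders were less stable than the class: 14.5% of gated C1q macrophage-like cells lay in the matching cluster.

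Levels in monocyte and macrophage-like cells were low, 655 and 879 CPM for the summed module, of which 301 and 336 CPM were Hmgb2. In E2 30 of 32 members were higher, 7 of them at least 1.5-fold, against 0.798% of the 13039 genes measured. Stmn1 was at 26.2 and 84.8 CPM (ratio 3.23, 2.81 to 3.72), Birc5 at 5.43 and 20.02 CPM (ratio 3.68, 2.72 to 5.09), Top2a at 9.13 and 26.6 CPM (ratio 2.91) and Mki67 at 14.3 and 34.7 CPM (ratio 2.42). Ube2c was at 4.74 and 15.6 CPM, Cdk1 at 2.89 and 11.1 CPM, and Tk1, the thymidine kinase and the only S gene past 1.5-fold in this class, at 4.51 and 12.2 CPM. Ccnb1, cyclin B1, had 5 and 85 UMIs (0.578 and 3.78 CPM, ratio 6.54, 2.70 to 20.7), and Kif11, the spindle motor, had 10 and 128 (ratio 4.92, 2.59 to 10.5). Both stay under the 1.5-fold line because the added 10 CPM outweighs them. The other S genes except Pcna had ratios between 1.06 and 2.61, with Mcm3 at 20.7 and 24.5 CPM and Uhrf1 at 3.35 and 8.76 CPM. The other G2/M genes had ratios between 0.930 (Aurka) and 3.66 (Tpx2). Pcna was lower, at 106 and 69.9 CPM (ratio 0.659, 0.607 to 0.715). Without the cells holding at least 5 members, 1 of 30 measured members was at least 1.5-fold higher. Neutrophil markers stood at 174 and 368 CPM in the class, none of 8 at 0, and at 14.7 and 85.2 CPM in its cells holding at least 5 members, with 6 and 3 at 0.

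Resident-like macrophages had 15 of 30 measured members higher in E2 (background 5.44%), including Top2a at 10.0 and 48.1 CPM and Mcm3 at 28.8 and 52.7 CPM, and C1q macrophage-like cells 5 of 29 (background 1.78%), led by Stmn1 at 30.2 and 127 CPM. Mast-like cells, granular cells of allergy that are long-lived in tissue, held at least 5 members in 1 of 51 (1.96%) and 20 of 193 (10.4%; ratio 5.28, 0.845 to 219), and at least 3 in 11.8% and 19.2% (ratio 1.63, 0.682 to 4.72). There 16 of 23 members were higher (background 7.44%). Mki67 had 0 UMIs in placebo and 90 in E2 (50.3 CPM), 7.68-fold higher if placebo is set to a floor of 3 UMIs. That fold counts UMIs and leaves out the spread between cells, so it is not a lower bound. Stmn1 was at 56.7 and 297 CPM, while Pcna was at 172 and 142 CPM. No basophil-like cell held 5 members, of 68 and 24, which allows up to 5.28% and 14.2%, and 8.82% and 8.33% held at least 3.

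The S genes and G2/M genes were then weighed against each other as the percent of their joint UMIs that came from S genes. Hmgb2 is counted with G2/M and holds most of its UMIs, 993 of 1649 CPM in placebo T-like cells. T-like cells were at 27.9% in placebo (27.1 to 28.7) and 22.2% in E2 (21.5 to 22.9), and without Hmgb2 and Pcna at 42.8% and 33.5%. Monocyte and macrophage-like cells were at 34.7% and 29.1%. CD8 T-like cells were above the other T subsets, at 40.8% and 34.9%, and gamma-delta T-like cells were at 31.1% and 16.8%. In cDC1-like cells the percentages were 25.2% (23.1 to 27.5) and 24.3% (23.5 to 25.1), within counting error, and within dividing cells they were 21.5% and 22.9%. In cDC2-like cells they were 37.6% and 29.7% by gates, and 26.9% and 29.9% by clusters, which turns the direction. Mast-like cells had the highest values of the plotted classes, 57.8% and 46.6%. ILC2-like cells, at 37.1% and 43.4%, and resident-like macrophages, at 34.2% and 36.9%, were higher in E2, with intervals that overlap in both. B-like cells were also higher in E2, at 18.6% (17.1 to 20.2) and 41.5% (32.5 to 51.0), intervals that do not overlap, from 49 S and 69 G2/M UMIs in E2. These intervals count UMIs and leave out the spread between cells. In placebo, 11 B-like cells held 82.2% of the module's UMIs in B-like cells of at least 2000 UMIs. Among T-like cells holding at least 5 members, 19 of 61 (31.1%) and 19 of 73 (26.0%) had more S than G2/M UMIs after thinning, intervals that overlap.

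**Figure D5:**
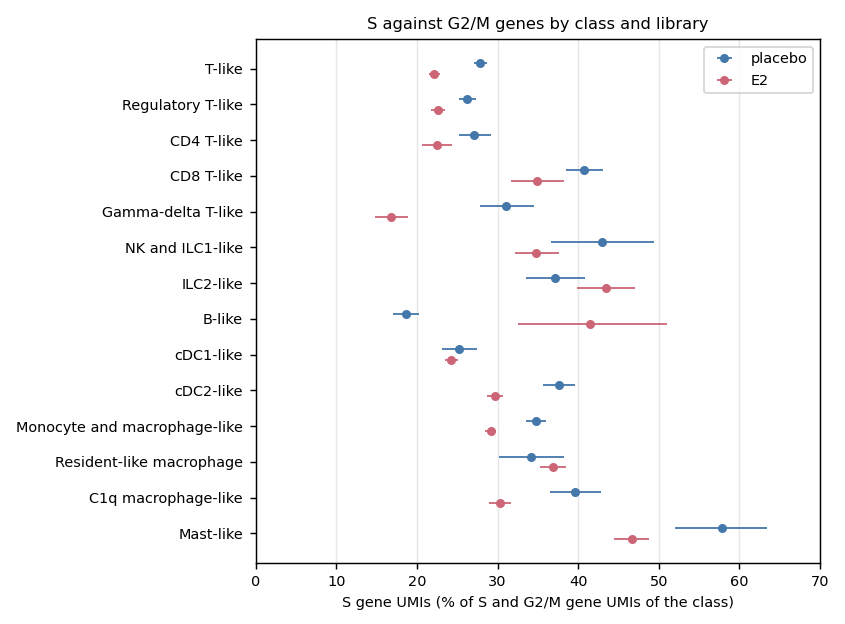
S gene UMIs as percent of S and G2/M gene UMIs of each class, by library, with 95% Clopper-Pearson intervals over UMIs. T-like cells are at 27.9% in placebo and 22.2% in E2, and the cDC1-like intervals overlap.

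The other cell cycle genes mostly had the same direction as the module. Of 49 other cell cycle genes measured in T-like cells, 43 were higher in E2, 4 of them at least 1.5-fold, with a median log2 difference of 0.27. Nusap1, a spindle protein, was at 26.1 and 50.7 CPM there and Cks1b, a CDK partner, at 44.7 and 79.7 CPM. In cDC1-like cells 44 of 48 were higher, 19 at least 1.5-fold, and Ccna2, cyclin A2, was at 6.41 and 29.2 CPM. In monocyte and macrophage-like cells 45 of 49 were higher, 6 at least 1.5-fold. In CD8 T-like cells 8 of 22 were higher and 14 lower. Genes that hold the cycle back were mixed. In T-like cells 7 of 16 were higher, 9 lower and none past 1.5-fold, with Btg1, an antiproliferative factor of resting lymphocytes, at 1736 and 1199 CPM. In cDC1-like cells 7 of 15 were higher. There Cdkn2d, the p19 inhibitor of CDK4 and CDK6, was at least 1.5-fold higher, at 22.0 and 49.2 CPM, and Cdkn1a, the p21 inhibitor, lower, at 219 and 104.7 CPM. In monocyte and macrophage-like cells Gadd45a, a growth arrest gene, was at 44.2 and 19.8 CPM, at least 1.5-fold lower. In cDC2-like cells 12 of 15 such genes were higher in E2, 2 at least 1.5-fold. G1 cyclins and kinases were mixed: of 7 in cDC1-like cells, Cdk4 was higher, at 67.7 and 113 CPM, and Ccnd2, cyclin D2, lower, at 107 and 49.2 CPM, and in T-like cells none passed 1.5-fold in either direction.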

How the data were processed

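Single-cell RNA from live, sorted CD45+ tumour cells was measured in 2 libraries, placebo and E2, 1 per group. The deposited values are raw UMI counts per gene and barcode, which the authors made with Cell Ranger 3.1.0 on mm10, per the submitters' processing notes. Features matched GENCODE M21 (GRCm38) by identifier for 47224 of 47730. Mitochondrial features held 0 UMIs, so cell quality could not be judged from them.

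Barcodes with under 200 genes were removed. Scrublet's automatic cut marked 0.0860% and 1.49% of barcodes, so barcodes were instead dropped from the top of the score, 0.8% for each 1000 barcodes held (97 and 266), in scanpy 1.11.5. Classes were gated per cell from 25 marker lists (1.25-fold margin, at least 2 markers). As an alternative, Leiden clusters (leidenalg 0.10.2, 2000 variable genes, 30 components, 15 neighbours, resolution 1) were made without members, other cell cycle genes and 118 genes that correlated with the members. Of 50 other cell cycle genes 49 were found. Cells were thinned to 2000 UMIs for shares. CPM ratios were taken on summed counts, with at least 20 UMIs over both libraries for a gene to be measured. Shares carry Clopper-Pearson and ratios exact conditional-binomial 95% intervals, for counting error only, and a floor is 3 counts. Intervals and calls were tested on simulated data. The members and lists were chosen with earlier results of these data known. All members are accounted for in the T-like and the monocyte and macrophage-like class; elsewhere up to 6 members with the largest log2 difference, plus Mki67, Top2a, Pcna, Mcm3, Stmn1 and Birc5, and up to 5 genes of each other list, could be named. Alternatives varied thinning, the call, doublets, classes, pseudocount and minimum. The alternatives added after seeing the data were those using 3 members other than Hmgb2, Pcna and Cenpa, 5 other cell cycle genes, no shared barcodes, 5 members with clusters or without doublet removal, and levels without cells holding 5 members.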

Additional observations from a re-analysis of the deposited data

Results flagged for a closer look

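In summed level, B-like cells moved against the other main classes. Their summed module was 5.57-fold lower in E2 than in placebo (674 against 3754 CPM), while the same sum was higher in E2 in T-like (3167 against 2449 CPM), cDC1-like (2629 against 1525 CPM), cDC2-like (2076 against 1426 CPM) and monocyte and macrophage-like cells (879 against 655 CPM). In placebo, 11 B-like cells held 82.2% of the module's UMIs in B-like cells of at least 2000 UMIs. In B-like cells holding under 5 members the sum was 791 CPM in placebo and 611 CPM in E2. The ratio of B-like shares had intervals that include 1 (0.131 to 1.09 at 3 members). The difference was not tested, since each group is 1 library.

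Barcodes removed by doublet score entered no main comparison, only the alternative settings without doublet removal. Of those with at least 2000 UMIs, 41 of 240 in E2 (17.1%) and 6 of 84 in placebo (7.14%) held at least 5 members, so the E2 value stood above the placebo value. Which of these barcodes are single cells was not tested.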

How the results depend on the processing

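No paired analysis was possible because each group is 1 library. Of 105 alternative values of the share ratio, 24 had the opposite sign to the main value: 9 for all gated immune cells, 10 for CD8 T-like cells, 2 for T-like cells and 1 each for regulatory T-like, cDC2-like and monocyte and macrophage-like cells. Of these classes the main interval excluded no difference only in regulatory T-like and monocyte and macrophage-like cells, so no direction is read for the others. The cause was not tested. As log2 ratios of the share holding at least 3 members, the main values were -0.05 (all gated immune cells), 0.16 (T-like), 0.47 (regulatory T-like), 0.11 (CD8 T-like), 0.33 (cDC1-like), 0.41 (cDC2-like) and 0.64 (monocyte and macrophage-like). Thinning to 1000 UMIs gave 0.40 for all cells and 1.23 for monocytes and macrophages. No thinning turned the sign in T-like (-0.18), regulatory T-like (-0.025), CD8 T-like (-0.46) and cDC2-like cells (-0.03), and so did thinning to a higher UMI number in T-like (-0.13) and CD8 T-like cells (-0.64). At least 2 members gave -0.24 (-0.36 to -0.12) for all cells and -0.027 for monocytes and macrophages, where the sign turned. At least 5 members gave 0.62 for all cells and 0.56 for T-like cells. A UMI of Mki67 or Top2a gave 0.21 for all cells, 1.78 for cDC1-like cells and 1.23 for monocytes and macrophages. Leaving out Hmgb2, Pcna and Cenpa gave 0.53, 0.56 and 1.24 for all cells, T-like cells and monocytes and macrophages, and at least 5 other cell cycle genes gave 0.88, 0.78 and 2.06. With at least 5 members and no shared barcodes, all cells, T-like and regulatory T-like cells gave 0.68, 0.64 and 0.97. With at least 5 members and clusters, all cells and T-like cells gave 0.58 and 0.62. With at least 5 members and no doublet removal, the values were 0.81, 0.72, 0.94 and 1.28 for all cells, T-like, regulatory T-like and monocyte and macrophage-like cells. The regulatory T-like interval was above 0 with at least 5 members (0.10 to 1.56). It included 0 at 3 members without doublet removal (-0.09 to 0.73) or with clusters (-0.00066 to 0.83). The same held for a UMI of Mki67 or Top2a (-0.15 to 0.89) and for at least 5 other cell cycle genes (-0.12 to 1.56).

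The counts of members at least 1.5-fold higher in E2 were 6 (T-like), 18 (cDC1-like), 12 (cDC2-like) and 7 (monocyte and macrophage-like), each of 32 measured. Thinning left fewer members measured and gave 3 of 30, 7 of 14, 8 of 20 and 4 of 27, in that order. In thinned cDC1-like cells 12 of the 14 were higher, with a median log2 difference of 0.62 against 0.64 in the main setting. Means over cells gave 2 and 3 of 32 (T-like, monocyte and macrophage-like). A pseudocount of 1 gave 12 and 20 of 32 for the same pair. The share over all genes was not taken at these alternative settings. Clusters gave 0 for cDC2-like cells. Without cells holding at least 5 members the counts were 1 of 24, 1 of 25, 0 of 22 and 1 of 30, in the order above. The S percent, E2 minus placebo, was -5.74, -0.94, -7.89 and -5.61 in that order. Within dividing cells it was -4.69 (T-like), -5.18 (cDC2-like) and -10.4 (monocyte and macrophage-like), and turned to 1.37 in cDC1-like cells. Without Hmgb2 and Pcna it was -9.30 (T-like), -3.83 (cDC1-like) and -9.17 (monocyte and macrophage-like). No doublet removal gave -4.67 (cDC2-like) and -3.22 (monocyte and macrophage-like). Clusters gave 2.97 for cDC2-like cells, a reversal. Small classes are limited by their cell number: 51 mast-like cells in placebo and 36 ILC2-like cells in E2 reached the depth.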

Other observations

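A cluster of shallow barcodes led by keratin genes, 146 in placebo and 55 in E2 with medians of 581 and 547 UMIs, carried the module at a high level, 9729 and 3762 CPM in sum. Stmn1 stood at 1201 and 258 CPM there and Mki67 at 580 and 113 CPM. The marker of the sort, Ptprc (CD45), had a UMI in 1.37% of its placebo barcodes and in 0 of its E2 barcodes. Most of these barcodes, 135 and 52, stayed ungated and entered no class above.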
